A study of Bos taurus with 12 samples.

Results

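ACTB and GAPDH are the reference genes most often used to scale RNA and protein measurements, and their own read counts were examined here in the liver of dairy calves. They were taken by identifier, ENSBTAG00000026199 for ACTB and ENSBTAG00000014731 for GAPDH, and are 2 of the 27570 genes counted. The calves were Holsteins housed in groups from birth to weaning, 6 under heat stress and 6 with cooling, so that the comparison group was actively cooled. Liver was taken by biopsy at 42 days of age, total RNA was sequenced, and each calf gave 1 library. The count tables hold identifiers without gene symbols, and none of the 27570 could be paired with a symbol from the available RefSeq table (0 matches). The liver label was therefore not checked against hepatocyte markers, and other common reference genes, glycolytic enzymes, actin-binding proteins and markers of other liver cells could not be looked up.

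ACTB encodes beta-actin, the cytoplasmic actin of the cell cortex and stress fibres, and is transcribed in nearly every cell type. GAPDH encodes glyceraldehyde-3-phosphate dehydrogenase, an enzyme of glycolysis that also runs in reverse during gluconeogenesis, a main task of the liver between meals and in ruminants. Both became reference genes because they are abundant and were assumed to stay level. A reference gene is useful only if its RNA differs little between samples and does not move with the treatment, since any such movement is passed on, with its sign turned, to every gene divided by it.

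Total counts per library ran from 22910846 to 32240168, and 14924 genes had enough counts to be tested, both members among them. Calves are numbered within a group only to name the libraries. The libraries of cooled calves 2 and 3 were unusually alike: the SD over genes of their difference in log2 CPM was 0.348, against 0.533 to 0.870 in the other 65 pairs. Some results that rest on them are also given with their counts summed into 1 library, but the CVs within each group are not. The libraries of heat-stressed calves 1, 2 and 6 ranked highest on measures other than the members. The step to the next library was no wider than the widest step among the other 9. Their TMM factors (a library's correction for the make-up of its RNA) were 1.09, 1.08 and 1.09, where the other 9 libraries ran from 0.867 to 1.05. They also had a count in 18977, 18939 and 18822 genes, against 18174 to 18699 in the other 9.

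Over all calves the CV (SD over mean) was 30.4% for GAPDH and 25.3% for ACTB. The jackknife SEs of these CVs, from leaving out 1 calf at a time, were 7.79 and 5.14 percentage points. No SE of the difference of the CVs was computed, so the SEs do not settle the order of the members. GAPDH had the higher CV whichever calf was left out, most narrowly without heat-stressed calf 1, at 25.2% against 23.1%. In the cooled calves alone GAPDH was the more even, at 8.06% against 19.8%. The unevenness of GAPDH lay in the heat-stressed calves. Levels are given in TMM CPM, the CPM of a library (its counts scaled to a common total) after the TMM correction, and are compared for 1 gene across calves, not between the genes, because no transcript length was used. In the cooled calves GAPDH ran from 610.4 to 754.3 CPM with a median of 692.0. In the heat-stressed calves it ran from 282.9 to 851.1 CPM with a median of 547.3. Heat-stressed calves 1, 2 and 6 stood at 282.9, 332.2 and 356.8 CPM, below every other calf of either group. Heat-stressed calves 3, 4 and 5 stood at 851.1, 737.7 and 740.8 CPM, within the cooled range or above it. Between the lowest 3 and the remaining 9 calves lay a gap of 253.6 CPM with no value in it, the widest between neighbouring calves, the next widest being 96.9 CPM. These were the same 3 libraries that had the highest TMM factors and the most genes with a count. As a share of a library's total count, without TMM, GAPDH made up 0.0308%, 0.0360% and 0.0388% in heat-stressed calves 1, 2 and 6. In the remaining 9 calves that share ran from 0.0624% in cooled calf 6 to 0.0781% in cooled calf 5. Heat-stressed calf 3, above the cooled range in TMM CPM, had a share of 0.0738%, within the cooled range. The part of the library measures in the low GAPDH of the 3 calves was not tested. Counting error was small beside these differences: the 8251 to 23340 GAPDH reads per calf give a counting CV (SD over mean) of at most 1.10%. In a biopsy, fewer cells that carry a transcript and less of it per cell cannot be told apart.

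ACTB also had its lowest values in heat-stressed calves 1, 2 and 6. In the cooled calves ACTB ran from 1134 to 1831 CPM with a median of 1262, the top value being that of calf 4 and the next, calf 1, standing at 1554 CPM. In the heat-stressed calves it ran from 780.2 to 1495 CPM with a median of 1045. Heat-stressed calves 1, 2 and 6 stood at 808.6, 943.7 and 780.2 CPM, the lowest of the 12, while calves 3, 4 and 5 stood at 1460, 1147 and 1495 CPM, inside the cooled range. The distance from these 3 calves to the rest was less marked than for GAPDH, since cooled calf 5 followed at 1134 CPM. With 19457 to 56991 reads per calf, the counting CV of ACTB was at most 0.717%.

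**Figure D1:**
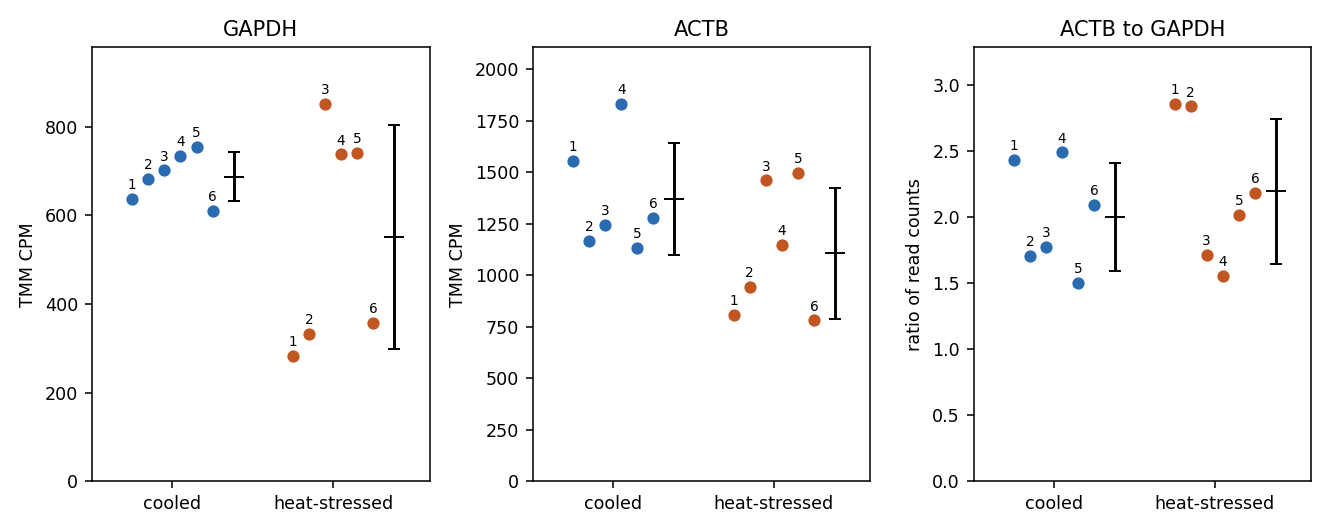
TMM CPM of GAPDH (left) and ACTB (middle) and the ratio of their read counts (right) in each calf; points are calves, numbered within their group, and the bar beside each group is its mean ± SD (n = 6). Heat-stressed calves 1, 2 and 6 lie between 282.9 and 356.8 CPM for GAPDH, apart from the other 9 calves at 610.4 to 851.1 CPM.

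The question of treatment was asked by comparing heat-stressed with cooled calves across all 14924 genes. Both members had lower means in heat-stressed calves, and for neither did the difference pass the test. For GAPDH the difference of the means was larger than the SD of the cooled calves and smaller than that of the heat-stressed calves. Cooled calves averaged 686.7 CPM ± 55.4 of GAPDH (SD, n = 6), and heat-stressed calves averaged 550.3 CPM ± 252.4 (SD, n = 6). Its log2 fold change was -0.32 (SE 0.261, edgeR quasi-likelihood test, Benjamini-Hochberg adjusted p = 0.615). For ACTB the cooled mean was 1368 CPM ± 271.1 (SD, n = 6) and the heat-stressed mean 1106 CPM ± 316.1 (SD, n = 6). Its log2 fold change was -0.31 (SE 0.207, edgeR adjusted p = 0.573). At an adjusted p under 0.05 neither member was called, nor was any of the 14924 genes (0%). At an unadjusted p under 0.05, again neither member was among the 1399 genes called (9.37%). DESeq2 gave adjusted p-values of 0.702 for ACTB and 0.757 for GAPDH, where it called 0.0615% of genes, and limma-voom gave 0.519 and 0.515, where it called 0%. The groups overlapped for both genes.

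These tests do not show that the members were level under heat. The 95% interval of the fold, heat-stressed over cooled, ran from 0.545 to 1.18 for GAPDH around an estimate of 0.801, and from 0.596 to 1.10 for ACTB around 0.808. A fall to 0.596 or 0.545 of the cooled level would therefore still lie at the edge of what the data allow. Taken as single values, the mean log2 CPM differed by -0.45 for GAPDH (p = 0.175) and by -0.33 for ACTB (p = 0.123), both by a two-sided exact permutation test over all assignments of the labels. Leaving out 1 calf at a time moved the fitted log2 fold change of GAPDH between -0.49, with heat-stressed calf 3 out, and -0.19, with heat-stressed calf 1 out. That of ACTB moved between -0.41, with heat-stressed calf 5 out, and -0.21, with cooled calf 4 out. The lowest edgeR adjusted p among these fits was 0.327.

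The variation of the members was then set against that of genes of like abundance, taken as the 500 tested genes nearest to each in mean log2 CPM. ACTB ranked 84 and GAPDH 153 by mean CPM among the 14924 genes. Over all 12 calves the CV of ACTB was 25.3%, and 247 of its 500 neighbours had a lower one, with a median of 25.4%. The CV of GAPDH was 30.4%, and 355 of its 500 neighbours had a lower one, with a median of 24.8%. By CV over 12 calves neither gene was among the steadier transcripts of its abundance: the lower quartile of the neighbours' CVs was 18.9% for ACTB and 18.8% for GAPDH. These places are loose. The share of neighbours with a lower CV was 49.4% for ACTB, with a jackknife SE of 17.4 percentage points. For GAPDH it was 71.0%, with a jackknife SE of 19.4 percentage points. Because few genes are this abundant, the neighbours spanned 234.0 to 5777 CPM for ACTB and 219.7 to 1915 CPM for GAPDH. ENSBTAG00000034189 had the lowest CV in both sets of neighbours and was chosen here after its values were seen. It ran from 980.2 to 1233 CPM over the 12 calves, with a CV of 6.25%.

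In the cooled calves GAPDH was among the steadier genes of its abundance, with a CV of 8.06% and only 44 of 500 neighbours lower, against a median of 15.1%. In the heat-stressed calves its CV was 45.9%, and 417 of 500 neighbours were lower, against a median of 29.2%. Its CV was thus 5.69 times as large in heat-stressed as in cooled calves. Of its 500 neighbours 6 had a ratio as high, and of all 14924 genes 79 (0.529%). Most genes varied more in the heat-stressed group, though by less, with a median ratio of 1.40 over all genes and of 1.83 among the neighbours. ACTB had a CV of 19.8% in cooled calves, where 339 of 500 neighbours were lower, and of 28.6% in heat-stressed calves, where 237 were lower. Its ratio of 1.44 was near the median of all genes and below the median of 1.80 among its own neighbours, of which 66.2% had a ratio as high.

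**Figure D2:**
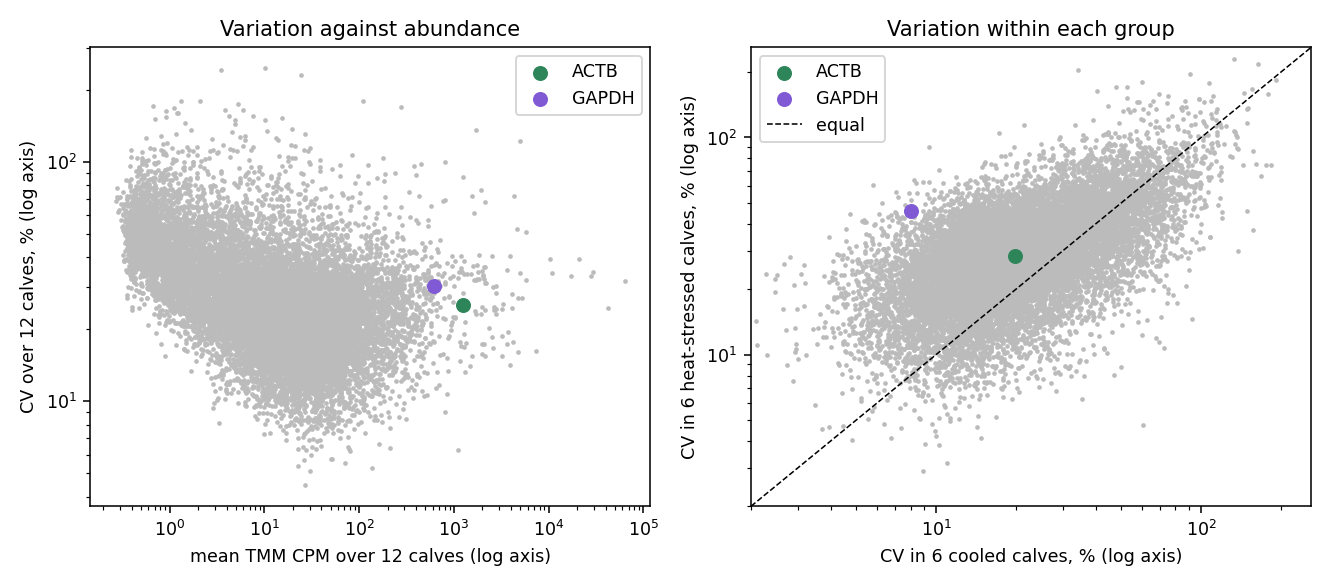
Left, CV of TMM CPM over 12 calves against mean TMM CPM for each of 14924 genes (log axes); right, CV in the 6 heat-stressed against CV in the 6 cooled calves, with a dashed line where both are equal. Grey points are genes; GAPDH lies at 8.06% in cooled and 45.9% in heat-stressed calves, and ACTB at 19.8% and 28.6%.

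A test of this difference in spread, added after the values were seen, compared each calf's distance in log2 CPM from the median of its own group. For GAPDH this distance averaged 0.63 among heat-stressed and 0.09 among cooled calves, a difference of 0.54. The median of the heat-stressed calves falls between calf 6 at 356.8 CPM and calf 4 at 737.7 CPM. No heat-stressed calf stood between them, so none is near that median. The exact permutation p was 0.00216, the smallest this two-sided test can give, and 0.0434 after Benjamini-Hochberg adjustment over 14924 genes. Exact means here that all assignments of the distances were enumerated. The distances were taken from the medians of the true groups and not taken anew for each assignment, so the p-values of this test are approximate. For ACTB the distances were 0.35 and 0.19, a difference of 0.15 (exact permutation p = 0.177, adjusted p = 0.556). Wider spread in heat-stressed calves at an unadjusted p under 0.05 was found in 15.4% of all genes, and at an adjusted p under 0.05 in 4.86%. Wider spread in cooled calves at an unadjusted p under 0.05 was found in 0.811%. With cooled calves 2 and 3 summed the difference for GAPDH was 0.53 and its exact permutation adjusted p 0.0628. When any 1 calf was left out, 15037 to 15106 genes were tested. Of these, 0 passed at an adjusted p under 0.05 with wider spread in heat-stressed calves. The adjusted call of GAPDH was thus lost in each of these sets, together with that of every other such gene. The difference for GAPDH was then lowest with heat-stressed calf 1 out, at 0.39, and highest with cooled calf 6 out, at 0.56. Its unadjusted exact permutation p was 0.00216 without any 1 of the cooled calves and 0.0476 to 0.149 without 1 of the heat-stressed calves. A group with an odd number of calves has 1 calf as its median, whose distance is 0 whatever the data. That forced 0 falls among the heat-stressed calves when 1 of them is left out, and puts the smallest p out of reach. It falls among the cooled calves when 1 of those is left out or calves 2 and 3 are summed. These p-values therefore cannot tell whether the test rests on single heat-stressed calves. With total counts in place of TMM the difference was 0.42 for GAPDH (exact permutation p = 0.00216, adjusted p = 0.0548, with 0 genes passing) and turned to -0.0017 for ACTB (adjusted p = 0.995).

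The ratio of the members' read counts in a library does not depend on how the library is scaled. ACTB had from 1.503 (calf 5) to 2.49 (calf 4) reads per GAPDH read in cooled calves, with a median of 1.94. In heat-stressed calves it had from 1.55 (calf 4) to 2.86 (calf 1), with a median of 2.10. Heat-stressed calves 1 and 2, at 2.86 and 2.84, were the highest of the 12, while calf 6 stood at 2.19, within the cooled range. Cooled calves had a mean log2 ratio of 0.98 ± 0.29 (SD, n = 6), and heat-stressed calves 1.10 ± 0.36 (SD, n = 6). The difference of 0.12 was within the spread between calves (two-sided exact permutation p = 0.537). The ratio measures unequal differences only. Where both transcripts are low alike, as in heat-stressed calf 6, the ratio need not stand out.

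Both genes were low in heat-stressed calves 1, 2 and 6. Because GAPDH splits the calves into separate clusters, no test of their correlation over all 12 is given. The 9 calves above the gap were set apart by GAPDH itself and cover only 610.4 to 851.1 CPM of it, so a correlation among them describes that range and does not bear on the joint low values. Over these 9 calves, log2 CPM of ACTB and GAPDH correlated at Pearson r = 0.09 (exact permutation p = 0.813, 0.939 after Benjamini-Hochberg adjustment over 5 relations) and Spearman rho = -0.18 (exact permutation p = 0.644, adjusted 0.948). Without the 2 calves farthest from the median of ACTB, r was 0.35 (exact permutation p = 0.458). Of the 5 relations, TMM factor to GAPDH had the largest Pearson r in size, at -0.62 (exact permutation p = 0.0765, adjusted 0.383). Its Spearman rho was -0.37 (exact permutation p = 0.336). Without the 2 calves farthest from the median TMM factor, r was -0.07 (exact permutation p = 0.908).

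Transcripts most like each member over all 12 calves were named by the Pearson correlation of log2 CPM, as a description only, since it spans the gap in GAPDH. For GAPDH they were ENSBTAG00000000550 at r = 0.99 and ENSBTAG00000002770 at r = 0.99. ENSBTAG00000000550 stood at 48.4, 54.1 and 60.9 CPM in heat-stressed calves 1, 2 and 6 and at 104.4 to 150.0 CPM in the other 9. ENSBTAG00000002770 stood at 155.4, 192.4 and 190.3 CPM in those 3 calves and at 320.6 to 432.4 CPM in the other 9. Likeness over 12 calves therefore rests largely on the same 3 libraries. Over the other 9 calves alone r was 0.91 and 0.87, and the genes ranked 48 and 118 by likeness to GAPDH. In all, 954 of 14923 other genes exceeded r = 0.9 with GAPDH over 12 calves and 138 were under -0.9, against 51 and 35 over the 9. For ACTB the closest were ENSBTAG00000006747 at r = 0.97 and ENSBTAG00000004279 at r = 0.94, with r of 0.92 and 0.79 and ranks of 5 and 143 over the 9 calves. With ACTB 52 genes exceeded r = 0.9 over 12 calves and 27 were under -0.9, against 17 and 25 over the 9. These correlations are descriptions of 12 libraries that share their scaling.

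What either gene would do as the sole reference was measured by sizing each library from its reads in place of TMM. Relative to TMM, and with a geometric mean of 1 over calves, GAPDH sized the libraries from 0.483 (heat-stressed calf 1) to 1.45 (heat-stressed calf 3), a 3.01-fold range or 1.59 on the log2 scale. ACTB sized them from 0.650 (heat-stressed calf 6) to 1.53 (cooled calf 4), a 2.35-fold range. The geometric mean of both ran from 0.571 (heat-stressed calf 1) to 1.38 (cooled calf 4), a 2.42-fold range. By each of these 3 references, heat-stressed calves 1, 2 and 6 had the 3 smallest sizes relative to TMM.

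**Figure D3:**
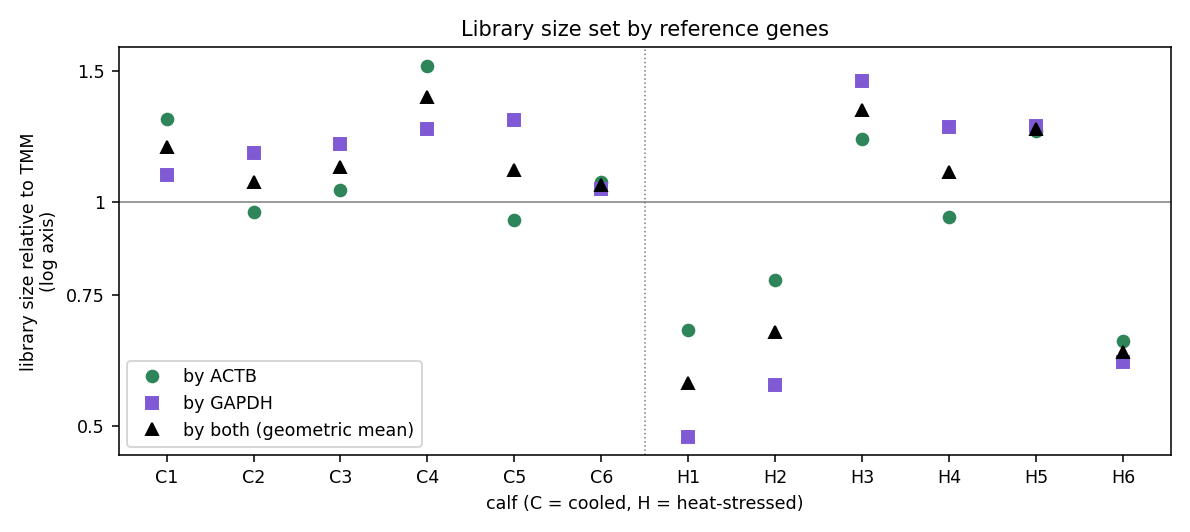
Size of each library as set by ACTB, by GAPDH or by the geometric mean of both, relative to its size by TMM (log axis); C1 to C6 are cooled and H1 to H6 heat-stressed calves. H1, H2 and H6 lie below 1 by each reference, at 0.483, 0.568 and 0.610 by GAPDH.

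Sized in this way, the whole table tilted toward higher levels in heat-stressed calves. Such a scaling moves all genes of a library by the same factor, so the direction of the tilt follows from the lower means of the members, which themselves did not pass the test (edgeR adjusted p of 0.573 for ACTB and 0.615 for GAPDH), and is no separate result. With TMM the median log2 fold change of the 14924 genes was 0.0030, and 50.4% of genes were higher in heat-stressed calves. Scaling by ACTB moved the median to 0.37 and that share to 83.3%. Scaling by GAPDH moved them to 0.59 and 93.4%, and the geometric mean of both to 0.47 and 89.2%. The variation between calves grew as well: the median CV of the other genes was 25.5% with TMM, 38.9% with ACTB, 52.6% with GAPDH and 44.5% with both. Scaling by 1 gene passes that gene's own spread on to all others, so growth of this kind is built into the scaling. No other single gene was used as a reference, so whether the growth is particular to the members was not tested. Each gene was also measured against the other as a reference. With GAPDH as the reference ACTB had a log2 fold change of 0.13 (edgeR adjusted p = 0.633), and with ACTB as the reference GAPDH had -0.11 (edgeR adjusted p = 0.803), where with TMM both stood at -0.31 and -0.32.

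The counts of genes at an unadjusted p under 0.05 show how far that common shift would carry into a table of results. With TMM edgeR called 760 genes as higher in heat-stressed calves (5.09%) and 639 as lower (4.28%). With ACTB it called 22.2% of genes, 3285 higher (22%) and 23 lower (0.154%). With GAPDH it called 30.5%, of which 4544 were higher (30.4%) and 9 lower (0.0603%). With both it called 28.3%, of which 4201 were higher (28.1%) and 22 lower (0.147%). At an adjusted p under 0.05 edgeR called 0 genes under each of the 4 scalings, with smallest adjusted p-values of 0.524 (TMM), 0.218 (ACTB), 0.160 (GAPDH) and 0.169 (both).

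The size of this tilt changed with single libraries. With GAPDH as the reference, the number of genes higher at an unadjusted p under 0.05 was 1272, 1836 and 1792 without heat-stressed calves 1, 2 and 6, and 7603 without heat-stressed calf 3. It was 2800, 2738, 2537 and 2584 without cooled calves 2, 3, 4 and 5, and 2771 with cooled calves 2 and 3 summed. For ACTB it was 1283, 1940 and 1145 without heat-stressed calves 1, 2 and 6, 5144 and 5194 without heat-stressed calves 3 and 5, and 2114 and 1564 without cooled calves 1 and 4. For both genes together it was 1503, 2107 and 1667 without heat-stressed calves 1, 2 and 6, 6720 without heat-stressed calf 3 and 2168 without cooled calf 4. Without heat-stressed calf 3, scaling by GAPDH also called 3447 genes at an edgeR adjusted p under 0.05, where TMM called 1.

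**Figure D4:**
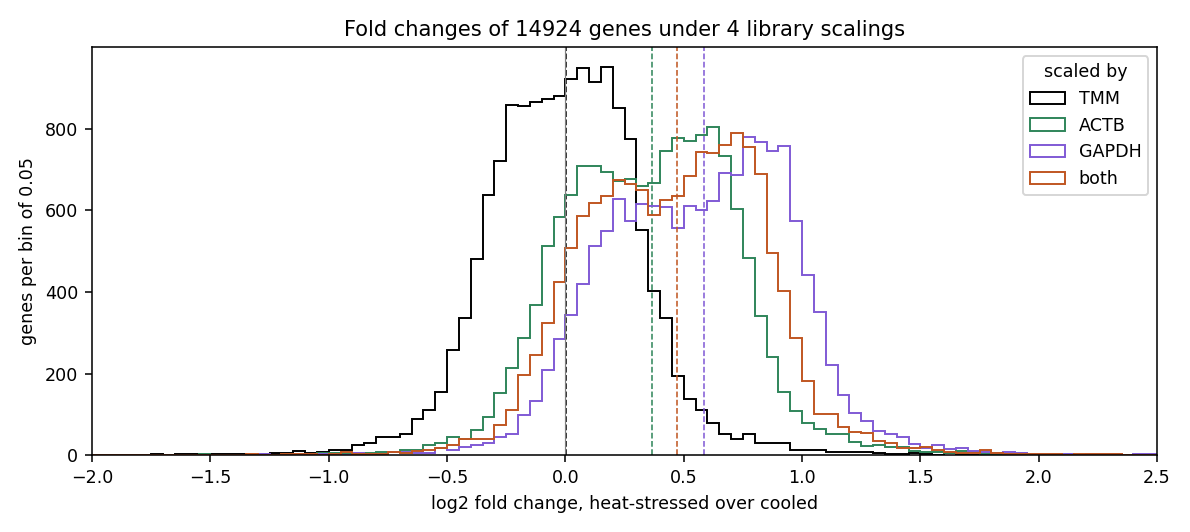
Histograms of the log2 fold change, heat-stressed over cooled, of 14924 genes (x axis; y axis, genes per bin) with libraries sized by TMM, ACTB, GAPDH or both; dashed lines are medians. The medians lie at 0.0030 with TMM, 0.37 with ACTB, 0.47 with both and 0.59 with GAPDH.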

How the data were processed

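The authors deposited 1 table of whole-number read counts per gene for each calf, not normalized. The build ARS-UCD1.2, HTSeq, HISAT2, Trim Galore 0.4.4 and FastQC 0.11.7 are named in the submitters' processing notes. Annotation release and strand setting were not given in the sources used here. Whether and how reads shared with near-identical copies were counted, such as processed pseudogenes of GAPDH or other actins for ACTB, is not known, so counts of both members carry that uncertainty.

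Calves were grouped by the treatment label. Nothing beyond the series description says that each library is a separate animal, so p-values measure the spread between these libraries. With edgeR 4.0.16 (R 4.3.3), genes were kept by filterByExpr, libraries scaled by TMM and groups compared by glmQLFit and glmQLFTest. P-values were adjusted by Benjamini-Hochberg over every gene tested. Alternatives used DESeq2 1.42.0 over all genes with a count and limma 3.58.1. Log2 CPM used a prior count of 2. Permutation tests, CVs and correlations were computed in Python 3.11.15. Scripts were tested on simulated data. Both members, the lists and the tests were chosen with earlier results of these data known. Named besides the members are the 2 genes most correlated with each. Planned lists of other reference genes, glycolytic, cytoskeletal and cell type genes were not used, for lack of symbols. Planned correlations over 12 calves were run over 9, as described.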

Additional observations from a re-analysis of the deposited data

How the results depend on the processing

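For each member, 21 alternatives to the edgeR fit (test, scaling, filter, libraries) kept the sign of the fold change and left its adjusted p above 0.05; the log2 fold change ran from -0.41 to -0.21 for ACTB and from -0.49 to -0.19 for GAPDH. No paired analysis was made, since the labels give no pairing of heat-stressed with cooled calves. Over 17 alternatives the CV ran from 22.2% to 26.6% for ACTB and from 25.2% to 32.1% for GAPDH. The share of neighbours with a lower CV, over 21 alternatives, ran from 35.6% to 56.2% for ACTB and from 57.2% to 83.2% for GAPDH. The test of spread, the counts with 1 calf left out under reference scaling and the use of 9 calves were chosen after seeing the data. In the test of spread, the exact permutation adjusted p of GAPDH was under 0.05 in 3 of 17 alternatives and above it in 14. With total counts in place of TMM, the difference in spread of ACTB was -0.0017 and that of GAPDH 0.42 (exact permutation adjusted p = 0.0548); the cause was not tested. With cooled calves 2 and 3 summed it was 0.53 for GAPDH, and leaving out 1 calf gave 0.39 to 0.56 for GAPDH and 0.09 to 0.23 for ACTB. The correlation of the members over 9 calves ran from -0.012 (without heat-stressed calf 3) to 0.27 with 1 calf left out. Under reference scaling, leaving out 1 calf gave 1145 to 5194 genes higher and 16 to 53 lower with ACTB, 1272 to 7603 and 5 to 27 with GAPDH, and 1503 to 6720 and 10 to 39 with both. With cooled calves 2 and 3 summed, GAPDH gave 2771 higher and both together 10 lower. At an adjusted p under 0.05 the counts ran from 0 to 1 with ACTB, 0 to 3447 with GAPDH and 0 to 1 with both, the highest being without heat-stressed calf 3. Counting error was small for the members, with a counting CV of at most 1.10%.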

Other observations

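The steadiness of a pair of genes can also be read from the SD of their log2 ratio, which no library scaling enters. Between ACTB and GAPDH it was 0.32 over 12 calves, 0.29 in cooled and 0.36 in heat-stressed calves. Between GAPDH and its neighbours in abundance it averaged 0.29 in cooled calves, where 5.01% of the neighbours had a lower average among themselves, and 0.66 in heat-stressed calves, where 70.1% did. For ACTB the averages were 0.42 (72.9% lower) and 0.51 (14.4% lower). Over all 12 calves the average was 0.54 for GAPDH, with 60.7% of neighbours lower, and 0.50 for ACTB, with 33.1% lower. By this measure ACTB placed lower among its neighbours than by its CV, where 49.4% were lower. These orders were not tested.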
